A study of Mus musculus with 18 samples.

Results

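MicroRNA (miRNA) precursor genes encode the RNA hairpins from which miRNAs are cut, and their expression was examined here in invariant natural killer T (iNKT) cells of the mouse thymus. Members were the probe sets whose single gene symbol begins with Mir and a digit or with Mirlet, and whose log2 value lay above the median of its own array on at least 3 of 18 arrays. Of 483 miRNA genes with a probe set of their own, 169 met this rule, among 13034 genes that met it in all, and 314 miRNA genes did not. The members were thus chosen by their log2 values over the 18 arrays, and their brightness is no finding.

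The study sorted thymic iNKT cells of C57BL/6 mice by genotype and by developmental stage, with 3 arrays in each of 6 groups. In Mst1KO mice a Cre recombinase under Cd4 control deletes floxed Mst1, also named Stk4, which encodes a kinase of the Hippo pathway. Cells lose the gene from the thymocyte stage at which Cd4 is first expressed, so other T cells of these mice carry the deletion too. WT mice of the same strain were the comparison. All cells were TCRb+, bound the CD1d-PBS57 tetramer and lacked CD24. S1 cells were CD44- NK1.1-, S2 cells CD44+ NK1.1- and S3 cells CD44+ NK1.1+. Thymocytes passed a CD8 microbead step, which the labels call a positive selection, before the sort. Each genotype had 3 mice by the study design, and no label ties a replicate number to a mouse. The p-values therefore rest on the variation among these samples, part of which may be technical.

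A miRNA gene is transcribed as a long primary transcript, from which Drosha and Dgcr8 cut a hairpin in the nucleus. Exportin 5 carries the hairpin to the cytoplasm, Dicer trims it to a short duplex, and 1 arm is loaded into an Argonaute protein. The loaded arm binds messenger RNAs mainly through its seed, bases 2 to 8 from its 5′ end, and lowers their translation and stability. In mice, loss of Dicer in T cells, or of the Mir181a-1 and Mir181b-1 locus, leaves few iNKT cells, and let-7 miRNAs act on Zbtb16, the transcription factor PLZF that iNKT cells need. The arrays were hybridised with amplified RNA, and a probe set named for a miRNA gene reads sequence of that locus. Primary transcript, hairpin and host transcript cannot be told apart in its value, and mature miRNAs were not measured separately. In a sorted bulk sample, fewer cells that express a gene and less RNA per cell also cannot be told apart.

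The hairpins and mature arms of the genes on which the results turn are given as RefSeq annotates them in mouse build GRCm38.p6, which served here for sequences and positions. A hairpin was matched by gene identifier for 140 of the 169 members, and 242 mature sequences for 148 of them. The hairpins of the genes with the clearest differences are shown first, 5′ to 3′, with the mature arms in capitals.
Mir181a-1 (chr1:137966455-137966541, plus strand): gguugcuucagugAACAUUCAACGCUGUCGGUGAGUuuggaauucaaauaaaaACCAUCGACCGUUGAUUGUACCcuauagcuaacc
Mir181b-1 (chr1:137966639-137966718, plus strand): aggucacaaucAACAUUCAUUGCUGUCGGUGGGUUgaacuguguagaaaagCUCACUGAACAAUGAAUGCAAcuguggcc
Mir181a-2 (chr2:38852735-38852810, plus strand): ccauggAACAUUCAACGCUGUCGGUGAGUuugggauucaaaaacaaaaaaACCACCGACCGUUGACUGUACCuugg
Mir142 (chr11:87756864-87756927, plus strand): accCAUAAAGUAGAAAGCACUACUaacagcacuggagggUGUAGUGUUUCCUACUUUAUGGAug
Mir23a (chr8:84208518-84208592, plus strand): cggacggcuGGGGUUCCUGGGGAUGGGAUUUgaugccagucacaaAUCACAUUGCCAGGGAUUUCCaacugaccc
Mir27a (chr8:84208672-84208758, plus strand): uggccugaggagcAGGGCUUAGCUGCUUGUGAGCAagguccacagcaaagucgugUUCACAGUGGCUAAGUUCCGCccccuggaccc
Mir665 (chr12:109586314-109586407, plus strand): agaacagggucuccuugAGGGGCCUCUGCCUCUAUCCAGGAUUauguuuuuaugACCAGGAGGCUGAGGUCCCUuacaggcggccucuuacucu
Mir1929 (chr10:44359676-44359768, plus strand): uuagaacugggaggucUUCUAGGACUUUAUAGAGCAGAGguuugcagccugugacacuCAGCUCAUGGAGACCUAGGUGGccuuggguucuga

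The 17 seeds that several members share join 33 members, and the largest such group is the miR-181 family. Its 5 members, Mir181a-1, Mir181a-2, Mir181b-1, Mir181c and Mir181d, share the seed ACAUUCA, in capitals below. Mir181a-1 and Mir181a-2 give the same 5′ arm from separate chromosomes. A further gene of the family, Mir181b-2, lay above the median on 1 array and did not pass. The miR-17 and let-7 families are shown beside it.
miR-181a-5p: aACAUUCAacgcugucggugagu
miR-181b-5p: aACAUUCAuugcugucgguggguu
miR-181c-5p: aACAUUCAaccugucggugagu
miR-181d-5p: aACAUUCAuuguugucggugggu
miR-17-5p: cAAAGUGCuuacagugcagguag
miR-20a-5p: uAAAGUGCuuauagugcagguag
miR-106b-5p: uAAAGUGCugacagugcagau
let-7a-5p: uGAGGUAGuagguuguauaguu
let-7i-5p: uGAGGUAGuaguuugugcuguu

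The sort and the arrays were checked first. Klrb1c, which encodes NK1.1, averaged 2.90, 4.94 and 8.78 at S1, S2 and S3 of Mst1KO and 3.08, 5.27 and 8.51 at the same stages of WT. It was thus higher at S2 than at S1 (2.04 in Mst1KO, 2.19 in WT, both called), although both gates are NK1.1-. Cd44 was called higher at that step too (2.08 and 1.97). Cd24a, which encodes the CD24 that the gate excludes, was called higher at S3 over S2 in Mst1KO (0.74) and in WT (0.82). Arrays of a group correlated at 0.976 to 0.986 across probe sets, their medians lay between 4.81 and 4.93, and no array duplicated another. Stk4 was lower in Mst1KO without passing the test. The log2 difference (± SE, n = 3 per group throughout) was -0.39 ± 0.11 at S3, with a limma adjusted p of 0.0767, and was smaller at S1 and S2. The part of Stk4 that its probe set covers is not stated. Of 5 B cell markers 4, and of 6 erythroid markers 2, had a probe set of their own, and none of these passed the filter, while 7 of 9 myeloid markers did.

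Of the 169 members, 87 lay above the array median on all 18 arrays, 37 on 12 to 17, 27 on 6 to 11 and 18 on 3 to 5. Of the 314 miRNA genes that did not pass, 293 lay above it on no array. Just inside the rule stood Mir713, Mir3080 and Mir5104, each above on 3 arrays, with mean log2 values of 4.62, 4.63 and 4.71. Just outside stood Mir3109, Mir5100 and Mir331, each above on 2 arrays, with means of 4.47, 4.40 and 4.38.

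Many miRNAs best known in T cells could not be described. Of 58 symbols of such genes listed from general knowledge, with Mir18 and Mir18a entered apart, 20 were members and 24 did not pass the rule. Those below it included Mir150, a miRNA of mature lymphocytes, Mir146, Mir29a, Mir221, Mir222, the Mir182, Mir183 and Mir96 cluster, and 9 of 11 let-7 genes. A further 12, among them Mir155, Mir21 and Mir223, were read only by probe sets that carry another symbol too, and 2 had no probe set under the symbol used. A value below the array median is not a measure of absence of the mature miRNA.

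The genes that the rule took in and left out are described here by base composition, with no test, since the rule used their levels. The 140 members with a RefSeq hairpin had a median of 53.7% G and C in it, against 46.3% in the 260 hairpins of miRNA genes that did not pass. The share that passed was 13.1% for hairpins under 40% G and C (8 of 61), 26.9% from 40% to under 50% (43 of 160), 36.8% from 50% to under 60% (49 of 133) and 87.0% at 60% and over (40 of 46). Whether base composition acts on these signals through the probes was not tested.

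**Figure D1:**
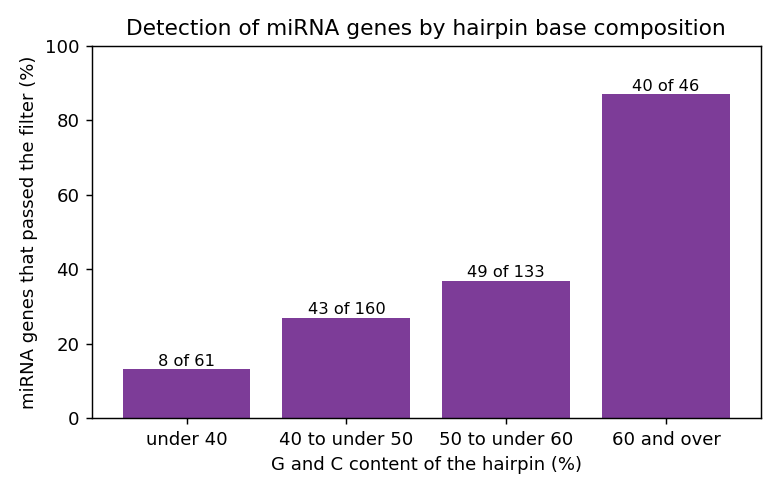
Share of miRNA genes that passed the rule (y axis, %) by the G and C content of the RefSeq hairpin (x axis, %), with the count that passed of all hairpins in the class above each bar. The share was 13.1% in the lowest class and 87.0% in the highest.

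The members varied more between arrays of a group than other genes. Their median residual SD was 0.246 log2 units over the 6 groups, against 0.167 for all 13034 genes, and the median SE of a difference between groups was 0.184 against 0.134. Their median level was 5.65 against 6.86 for all genes tested. Genes were called at a Benjamini-Hochberg adjusted p under 0.05 from limma. By this call 36 of the 169 members differed in at least 1 of 9 comparisons, 25 of them in a single one. The matching count over all genes was not taken, but S3 over S2 of WT alone called 23.6% of them.

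**Figure D2:**
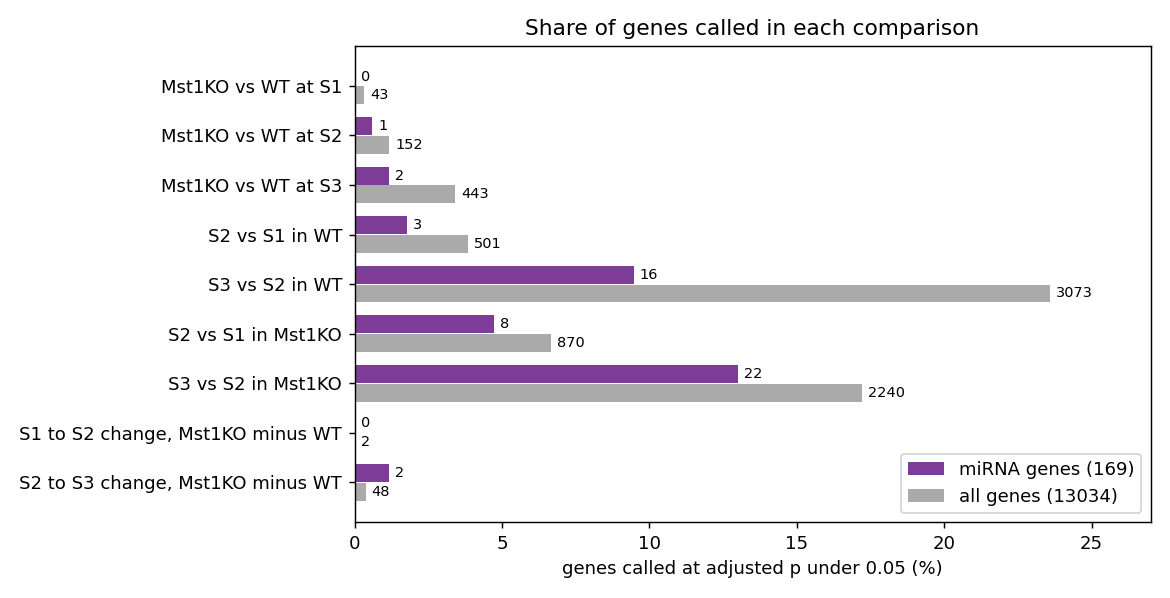
Share of genes called at an adjusted p under 0.05 (x axis, %) in each of 9 comparisons (y axis), for the 169 miRNA genes and for all 13034 genes, with counts at the bar ends. The miRNA genes had the lower share in 8 of the comparisons, and in the difference of the S2 to S3 change their 2 calls made 1.18% against 0.368%.

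Between S2 and S3 of WT, the step at which iNKT cells gain NK1.1, 3 of the 5 miR-181 genes that passed fell, and Mir142, Mir23a and Mir27a rose. In all, 16 of the 169 members were called, 9 higher and 7 lower at S3, which was 9.47% of them, against 23.6% of all genes (10.4% higher and 13.2% lower). The median difference of the members was 0.06 on the log2 scale and that of all genes lay at 0. At S3 the 5 measured NK and innate lymphoid markers averaged 8.39 to 8.57 per array, against 5.79 to 5.99 at S2, and all 5 were called higher. The 5 conventional T cell markers averaged 6.92 to 7.07 at S3, against 7.98 to 8.43 at S2, and 3 were called lower. The 7 myeloid markers averaged 5.91 to 6.07 at S3, against 5.48 to 5.56 at S2, and 3 were called higher. The part of such cells, or of the stage itself, in the miRNA differences was not tested.

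Mir181b-1 had the lowest S3 to S2 value of the members in both genotypes. It read 7.40, 7.75 and 7.41 at S1 of Mst1KO, 5.87, 6.05 and 6.00 at S2 and 2.49, 3.44 and 5.60 at S3. The values were 8.05, 6.86 and 6.58 at S1 of WT, 7.33, 6.95 and 8.12 at S2 and 2.43, 3.54 and 3.01 at S3. Every S3 array lay below every S2 array of its genotype, and 1 Mst1KO array at S3 stood far above the other arrays of that stage. The WT arrays of S3 lay below their array medians, and the files do not show whether the probe set was above background there, so the size of the WT difference is uncertain. The S3 to S2 difference was -2.13 ± 0.57 in Mst1KO (limma adjusted p = 0.015) and -4.47 ± 0.57 in WT (adjusted p = 1.79e-05). The Mst1KO call was lost without S3 replicate 1 (-1.46, adjusted p = 0.0899) or S3 replicate 2 (-1.93, adjusted p = 0.0616). The difference between the genotypes in this step was 2.34 ± 0.80, with an adjusted p of 0.245, and was not called.

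Mir181a-1 lies on the same strand beside Mir181b-1, and both hairpins are thought to come from a shared primary transcript. It read 2.77, 5.78 and 5.37 at S1 of Mst1KO, 4.10, 4.43 and 3.40 at S2 and 2.85, 2.60 and 3.60 at S3. It read 5.94, 4.23 and 4.59 at S1 of WT, 5.71, 5.06 and 5.66 at S2 and 2.39, 2.11 and 2.67 at S3. The Mst1KO arrays of S2 and S3 overlapped, while those of WT were far apart, and 1 Mst1KO array at S1 was as low as the S3 arrays. As for Mir181b-1, all S3 arrays of WT were below their medians. For Mir181a-1 so were all S2 and S3 arrays of Mst1KO, and the sizes of its differences are uncertain. The S3 value differed from S2 by -0.96 ± 0.59 in Mst1KO (adjusted p = 0.307), which was not called, and fell by -3.08 ± 0.59 in WT (adjusted p = 0.00102). The difference between these changes was 2.13 ± 0.84, with an adjusted p of 0.333.

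At S2 both genes of the locus lay lower in Mst1KO on all arrays, by -1.49 ± 0.57 for Mir181b-1 (adjusted p = 0.245) and -1.50 ± 0.59 for Mir181a-1 (adjusted p = 0.263), and neither was called. The Mst1KO arrays of Mir181a-1 lay below their medians there, so the size of its difference is uncertain. Their arrays overlapped between genotypes at S1 and at S3. Mir181a-2 of the second locus, which lies inside the noncoding gene Nr6a1os, averaged 4.64 ± 0.32 at S3 and 4.87 ± 0.25 at S2 of Mst1KO (SD, n = 3 each), which was not called. In WT it averaged 4.52 ± 0.05 at S3 and 5.28 ± 0.22 at S2, a difference of -0.76 ± 0.21 (adjusted p = 0.0161). Without WT S2 replicate 2 the WT value was -0.66, with an adjusted p of 0.0676. The WT arrays of S3 lay below their medians for Mir181a-2 too, so the size of this difference is uncertain. Mir181c and Mir181d, on chromosome 8, were called in none of the 9 comparisons. Their S3 to S2 differences in Mst1KO were 0.03 ± 0.20 and -0.16 ± 0.11, and in WT 0.34 ± 0.20 and 0.10 ± 0.11. Of the 5 genes that carry this seed, 3 were thus called at S3 of WT and 1 in Mst1KO, and no difference between the genes was tested. The 3 called in WT lay below the median on all WT arrays of S3, while Mir181c and Mir181d lay above it on all 18 arrays.

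**Figure D3:**
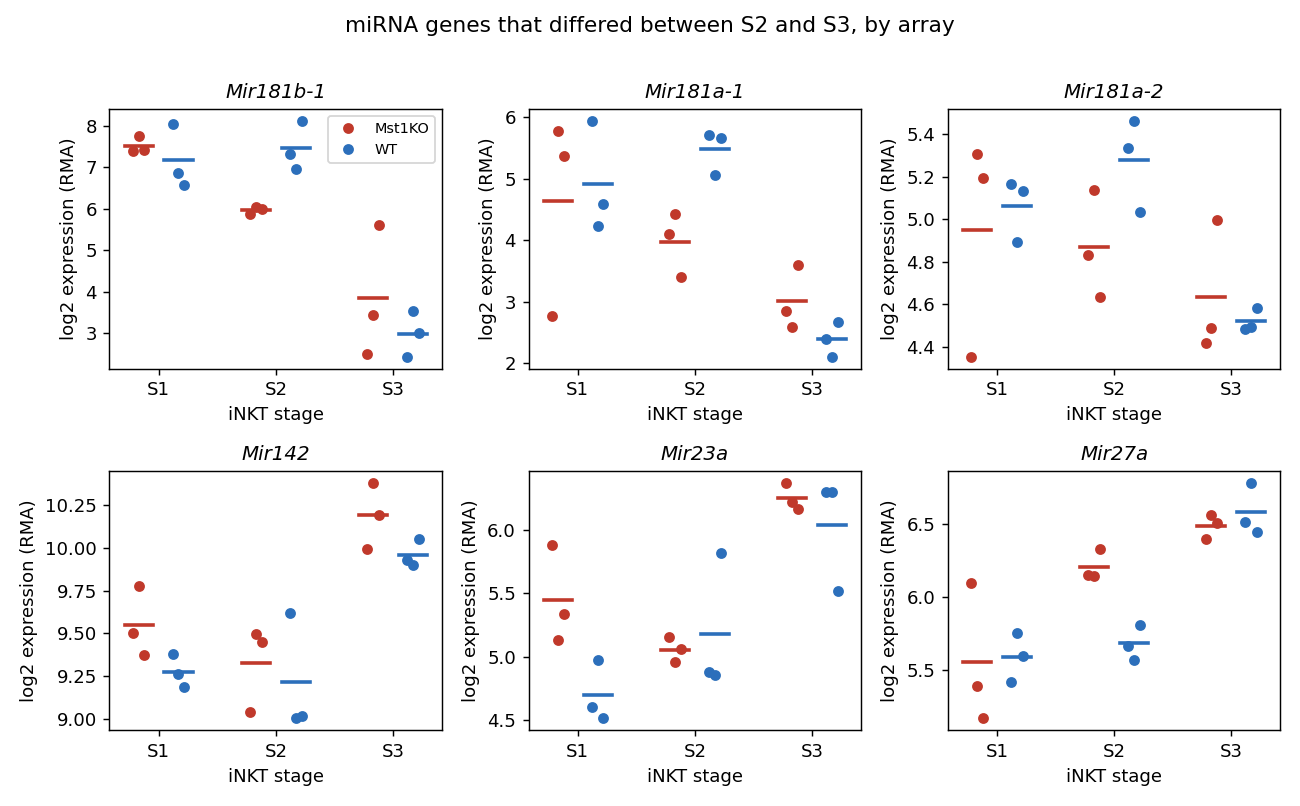
Log2 expression (y axis) of 6 miRNA genes by stage (x axis), 1 point per array, Mst1KO left of WT at each stage, with lines at the mean of 3 arrays. Mir181b-1 in WT stood at 2.43 to 3.54 at S3, against 6.95 to 8.12 at S2, and Mir142 in WT lay at 9.90 to 10.05 at S3 and at or below 9.62 at S2.

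Mir142 encodes a miRNA of blood cells, with roles in T cell development and proliferation in mice. It read 9.50, 9.78 and 9.38 at S1 of Mst1KO, 9.04, 9.49 and 9.45 at S2 and 9.99, 10.38 and 10.20 at S3. The values were 9.38, 9.26 and 9.18 at S1 of WT, 9.62, 9.0005 and 9.01 at S2 and 9.93, 9.90 and 10.05 at S3. In both genotypes every S3 array was above every array of the earlier stages. The S3 to S2 difference was 0.86 ± 0.17 in Mst1KO (adjusted p = 0.00152) and 0.75 ± 0.17 in WT (adjusted p = 0.00318). Both calls held with each array left out.

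Mir23a and Mir27a lie in 1 cluster with Mir24-2, which was read only by a probe set with other symbols, and limit cytokine production of T helper cells in mice. Mir23a read 5.88, 5.13 and 5.34 at S1 of Mst1KO, 5.15, 4.96 and 5.06 at S2 and 6.37, 6.22 and 6.17 at S3. It read 4.60, 4.97 and 4.51 at S1 of WT, 4.88, 4.86 and 5.82 at S2 and 6.30, 6.30 and 5.52 at S3. S3 and S2 were apart in Mst1KO and overlapped in WT through 1 array each. Its S3 to S2 difference was 1.20 ± 0.25 in Mst1KO (adjusted p = 0.00323) and 0.86 ± 0.25 in WT (adjusted p = 0.0209). The WT call was lost without S2 replicate 1 or 2 or S3 replicate 1 or 2, with values of 0.69 to 0.73, and the Mst1KO call was kept in each such fit.

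Mir27a read 6.09, 5.39 and 5.16 at S1 of Mst1KO, 6.15, 6.14 and 6.33 at S2 and 6.40, 6.56 and 6.51 at S3. The values were 5.41, 5.75 and 5.59 at S1 of WT, 5.66, 5.57 and 5.81 at S2 and 6.52, 6.79 and 6.44 at S3. In Mst1KO the S2 arrays were above all S2 arrays of WT, and in WT the S3 arrays were above those of both earlier stages. In Mst1KO it rose at S2 over S1 by 0.66 ± 0.18 (adjusted p = 0.0339), a call lost in 5 of 6 fits that left out 1 array, with values of 0.46 to 0.69 in those. In WT it rose at S3 over S2 by 0.90 ± 0.18 (adjusted p = 0.00119). The S2 value in Mst1KO over WT was 0.53 ± 0.18, with an adjusted p of 0.179, and the S1 to S2 changes differed by 0.56 ± 0.25 between genotypes, with an adjusted p of 0.703.

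Mir1938, annotated inside Ifrd1, was called in 4 comparisons, more often higher with stage than any other member. It read 9.10, 8.74 and 8.81 at S1 of Mst1KO, 9.65, 9.68 and 9.58 at S2 and 10.40, 10.41 and 10.26 at S3. It read 9.16, 8.55 and 8.80 at S1 of WT, 9.85, 9.40 and 9.33 at S2 and 10.57, 10.65 and 10.74 at S3. No stages overlapped in either genotype. The S2 to S1 difference was 0.75 ± 0.15 in Mst1KO (adjusted p = 0.00496) and 0.69 ± 0.15 in WT (adjusted p = 0.0151). The S3 to S2 difference was 0.72 ± 0.15 in Mst1KO (adjusted p = 0.00317) and 1.12 ± 0.15 in WT (adjusted p = 3.39e-05). The S3 to S2 difference of Ifrd1 itself was 0.28 in Mst1KO (adjusted p = 0.135), which was not called, and 0.61 in WT (adjusted p = 0.00142). Without WT S2 replicate 1 or WT S1 replicate 2 the first WT call was lost, at 0.53 and 0.55.

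The other members called at S3 over S2 of WT were less well known or less stable. Mir697, inside the splicing factor gene Sf3a3, read 5.44, 5.37 and 5.06 at S3 of Mst1KO and 5.66, 4.91 and 5.65 at S2, with no call. In WT Mir697 read 7.38, 6.05 and 5.78 at S3 and 4.85, 5.10 and 4.24 at S2, a rise of 1.68 ± 0.35 (adjusted p = 0.00224) that held with each array left out. Mir342, inside Evl, averaged 8.36 ± 0.44 at S3 and 7.36 ± 0.16 at S2 (difference 1.00 ± 0.32, adjusted p = 0.032), a call lost in 4 of 6 fits that left out an array. Mir5120 and Mir3110 rose by 0.57 and 0.40, and Mir1192 by 1.02, a call lost in 5 of 6 such fits, with 0.68 without S2 replicate 3. Mirlet7i, of the let-7 family, averaged 4.49 ± 0.24 at S3 and 5.20 ± 0.12 at S2, a difference of -0.70 ± 0.21 (adjusted p = 0.0201) that was lost in 3 of 6 such fits. Its WT arrays of S3 lay below their medians, so the size of this difference is uncertain. Mirlet7a-1, which gives the same seed, had a difference of 0.19 ± 0.18 (adjusted p = 0.5). Mir31 fell by 0.75 on the log2 scale and Mir511, which lies inside the macrophage receptor gene Mrc1, by 0.39. The Mir31 call was lost without S3 replicate 1, and the Mir511 call in 5 of 6 such fits.

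Between S2 and S3 of Mst1KO, 22 members were called, 15 higher and 7 lower, or 13% of them, against 17.2% of all genes (8.01% higher and 9.18% lower). The median difference was -0.02 over the members and -0.03 over all genes. The higher ones included Mir142, Mir23a and Mir1938 above, Mir1933 (1.23), Mir30e (1.41), Mir1931 (0.93), Mir1949 (0.94), Mir5104 (0.94), Mir466h (0.87) and Mir669m-1 (0.77). Mir466h and Mir669m-1 lie in the large cluster of related miRNA genes inside Sfmbt2, whose members resemble each other in sequence, so that probes may not separate them. Mir466h read 7.01, 6.99 and 6.70 at S3 and 6.11, 5.85 and 6.11 at S2 of Mst1KO. In WT it read 6.28, 6.97 and 6.64 at S3 and 6.20, 6.26 and 6.62 at S2. The stages were apart in Mst1KO and overlapped in WT. Mir1931 read 9.37, 9.55 and 9.15 at S3 and 8.40, 7.93 and 8.96 at S2 of Mst1KO, against 8.76, 9.23 and 9.23 at S3 and 8.99, 8.83 and 8.90 at S2 of WT. Its S3 to S2 difference of 0.93 ± 0.20 in Mst1KO had an adjusted p of 0.00346. The calls of Mir30e and Mir194-2 at this step were lost in each of the 6 fits that left out 1 array. Mir5104 and Mir194-2 passed the filter only through the Mst1KO group in which they were high, at S3 and at S2, so their calls at this step, and that of Mir194-2 at S2 over S1, are descriptions of that choice. Of 52 calls of members between a pair of groups, 9 had all arrays of the lower group below the array median. At S3 over S2 of WT they were those of Mir181a-1, Mir181a-2, Mir181b-1 and Mirlet7i. In Mst1KO they were those of Mir1933, Mir219a-2 and Mir5104 at the same step and both calls of Mir194-2.

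Smaller rises in Mst1KO were those of Mir1191 (0.51), Mir92b (0.40), Mir329 (0.61) and Mir3110 (0.44). Beside Mir181b-1, the lower members were Mir106b (-1.39 ± 0.43, adjusted p = 0.0361), Mir143 (-0.74), Mir665 (-0.48), Mir194-2 (-0.59), Mir219a-2 (-0.31) and Mir2137 (-0.53). Mir106b belongs to a cluster related to miR-17 and lies inside the replication gene Mcm7. It averaged 5.12 ± 0.47 at S3 and 6.51 ± 1.03 at S2 of Mst1KO, and the call was lost without S2 replicate 2, which read 7.70 (-0.79, adjusted p = 0.182), and without S3 replicate 1 (-1.21) or 2 (-1.29). At this step the 7 measured myeloid markers averaged 6.22 to 6.59 per array at S3 and 5.70 to 5.84 at S2, and 5 of them were called higher. The 5 NK and innate lymphoid markers averaged 8.37 to 8.57 at S3 and 5.98 to 6.15 at S2, with 4 called higher. The 5 conventional T cell markers averaged 6.82 to 7.07 at S3 and 8.08 to 8.30 at S2, with 3 called lower. The part of these cells in the miRNA differences was not tested.

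**Figure D4:**
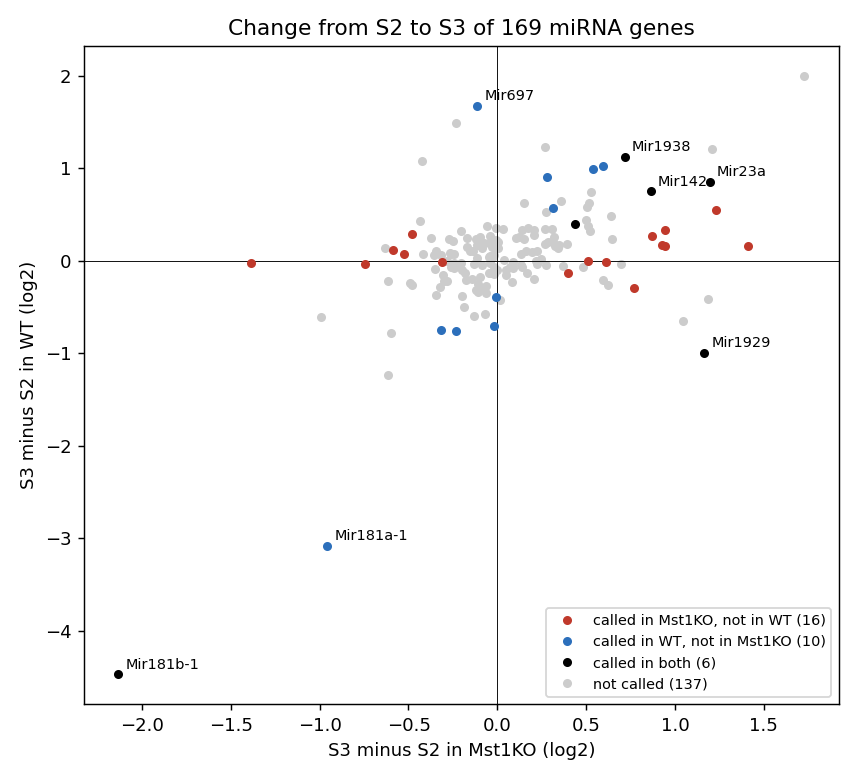
Change from S2 to S3 (log2, S3 minus S2) of 169 miRNA genes in Mst1KO (x axis) and WT (y axis), 1 point per gene, coloured by where it was called. Mir181b-1 fell in both genotypes, Mir142, Mir23a and Mir1938 rose in both, and Mir1929 lay at 1.16 in Mst1KO and -0.99 in WT.

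Set side by side, 32 members were called between S2 and S3 in either genotype. Higher in both were Mir142, Mir1938, Mir23a and Mir3110, which made 26.7% of the 15 higher in Mst1KO and 44.4% of the 9 higher in WT. Lower in both was Mir181b-1, 14.3% of the 7 lower members of each. The matching overlap over all genes was not taken, so whether these shares are particular to miRNA genes is not shown. Only Mir1929 was called in opposite directions. Across the 169 members the S2 to S3 change in Mst1KO correlated with that in WT at r = 0.50, against 0.81 across all 13034 genes. For the S1 to S2 change the values were r = 0.02 and 0.66. These correlations are across genes, which are not independent, and the members' larger spread between arrays bears on them.

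Between S1 and S2 few members were called. In Mst1KO 8 were called, 6 higher and 2 lower at S2, or 4.73% against 6.67% of all genes (3.77% higher and 2.9% lower). In WT there were 3, all higher, or 1.78% against 3.84% of all genes (2.7% higher). In Mst1KO, beside Mir1938 and Mir27a, Mir143 (0.66), Mir3088 (0.71), Mir194-2 (0.67) and Mir665 (0.37) were higher, and Mir23b (-1.33) and Mir1191 (-0.50) were lower. In WT, Mir5125 (0.46), inside the splicing gene Srrm2, and Mir692-1 (0.32) were higher. Mir23b, the paralogue of Mir23a in the intron-bearing gene Aopep, read 4.31, 4.98 and 4.76 at S2 and 5.93, 6.35 and 5.77 at S1 of Mst1KO. It averaged 4.78 ± 0.59 at S2 and 4.80 ± 0.08 at S1 of WT, and the Mst1KO call was lost in 4 of 6 fits that left out an array. Calls kept with each of the 6 arrays left out were those of Mir143 and Mir1938 in Mst1KO. At this step in Mst1KO the 7 myeloid markers averaged 5.70 to 5.84 per array at S2 and 5.21 to 5.41 at S1, with 3 called higher and 1 lower. The 5 conventional T cell markers averaged 8.08 to 8.30 at S2 and 9.02 to 9.41 at S1, with 4 called lower, and 1 of 5 NK and innate lymphoid markers, Tyrobp, was called higher. In WT 3 conventional T cell markers were called lower and no myeloid one was called. Their part in these differences was not tested.

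The Mir17 cluster, whose miRNAs promote lymphocyte survival and are needed for iNKT development in mice, was measured through Mir17, Mir18, Mir19a and Mir20a. None was called in any comparison. Mir20a averaged 7.14 ± 0.38, 7.28 ± 0.90 and 6.86 ± 0.65 at S1, S2 and S3 of Mst1KO and 7.03 ± 0.36, 6.20 ± 0.73 and 7.28 ± 0.57 at the same stages of WT. Mir19a had SDs of up to 1.44 in Mst1KO and 1.70 in WT at S2. Residual SDs were 0.66 for Mir17, 0.99 for Mir18, 1.08 for Mir19a and 0.63 for Mir20a, against the median of 0.246 for members. Mir15a and Mir16-2, which share a seed and restrain the cell cycle, were not called either. Of the 20 members from the list of miRNAs known in T cells, 4 were called between S3 and S2 of Mst1KO (20%, against 17.2% of all genes) and 7 in WT (35%, against 23.6%), and none between genotypes.

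Between genotypes, few miRNA genes differed at any stage. At S1 none of the 169 members was called, against 0.33% of all genes, while 21 had an unadjusted p under 0.05 (12.4%, against 11.2% of all genes). At S2 1 was called (0.592%, against 1.17%), and at S3 2 were called (1.18%, against 3.4%). All 3 calls were lower in Mst1KO, a direction in which 0.453% of all genes were called at S2 and 1.05% at S3. The median difference of the members was -0.07, -0.03 and -0.05 at S1, S2 and S3, and that of all genes 0.01 at each stage. Single members ranged from -0.86 to 1.82 at S1, from -1.74 to 1.36 at S2 and from -1.76 to 1.35 at S3, all extremes without a call.

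Mir143, a miRNA gene best known from smooth muscle, lies in the noncoding gene Carmn. At S3 it read 6.43, 6.57 and 6.46 in Mst1KO, against 7.34, 7.13 and 7.16 in WT. At S1 it read 6.52, 6.46 and 6.72 in Mst1KO, against 7.08, 7.47 and 7.14 in WT. At S2 it read 7.04, 7.44 and 7.21 in Mst1KO, against 7.09, 7.55 and 7.10 in WT. The genotypes were apart at S1 and S3 and overlapped at S2. The difference was -0.72 ± 0.14 at S3 (limma adjusted p = 0.0083), -0.66 ± 0.14 at S1 (adjusted p = 0.0537) and -0.02 ± 0.14 at S2 (adjusted p = 0.978). Carmn differed by -0.10 at S3, -0.07 at S1 and -0.07 at S2, with no call. Within Mst1KO, Mir143 rose at S2 over S1 by 0.66 ± 0.14 (adjusted p = 0.00769) and fell at S3 against S2 by -0.74 ± 0.14 (adjusted p = 0.00132). Within WT the same differences were 0.01 and -0.04. The change from S1 to S2 differed between genotypes by 0.65 ± 0.20 (adjusted p = 0.45) and that from S2 to S3 by -0.70 ± 0.20 (adjusted p = 0.162), so neither difference of changes was called.

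Mir665 belongs to the imprinted miRNA region of chromosome 12 and lies within the span of Rtl1. At S3 it read 5.38, 5.23 and 5.36 in Mst1KO, against 6.18, 5.89 and 5.99 in WT. At S1 it read 5.57, 5.52 and 5.19 in Mst1KO, against 5.63, 5.60 and 5.59 in WT. At S2 it read 5.90, 5.79 and 5.72 in Mst1KO, against 5.66, 5.82 and 5.71 in WT. The gap between genotypes at S3 was wider than the range within either group. The S3 difference was -0.70 ± 0.11 (adjusted p = 0.00105), and the call held with each array left out. The S2 to S3 change differed by -0.77 ± 0.15 between genotypes (adjusted p = 0.0319), but this call was lost in 8 of 12 fits that left out an array, with values between -0.69 and -0.80. Its neighbours within 10 kb, Mir540 and Mir3070b, were called in no comparison.

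Mir1929, inside the autophagy gene Atg5, moved in opposite directions between S2 and S3 in the 2 genotypes. At S3 it read 6.68, 5.95 and 6.97 in Mst1KO, against 5.89, 5.56 and 5.49 in WT. At S2 it read 5.22, 5.51 and 5.39 in Mst1KO, against 6.89, 6.10 and 6.93 in WT. At S1 it read 6.45, 6.16 and 5.91 in Mst1KO, against 5.86, 5.99 and 6.34 in WT. The genotypes overlapped at S1 and were apart at S2 and S3, with the order turned. The S2 difference was -1.27 ± 0.25 (adjusted p = 0.0192) and the S3 difference 0.89 ± 0.25 (adjusted p = 0.0596). The S3 to S2 difference was 1.16 ± 0.25 in Mst1KO (adjusted p = 0.00333) and -0.99 ± 0.25 in WT (adjusted p = 0.0071). The changes differed by 2.16 ± 0.35 between genotypes (adjusted p = 0.0114), and this call held in all 12 fits that left out an array but not in a fit on the 4 groups compared alone (adjusted p = 0.0584). The S2 call was lost without WT S2 replicate 1 (-1.14) or 3 (-1.12) and without Mst1KO S2 replicate 1 (-1.19) or 3 (-1.28). Atg5 differed by 0.07 at S2 and -0.03 at S3, with no call.

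**Figure D5:**
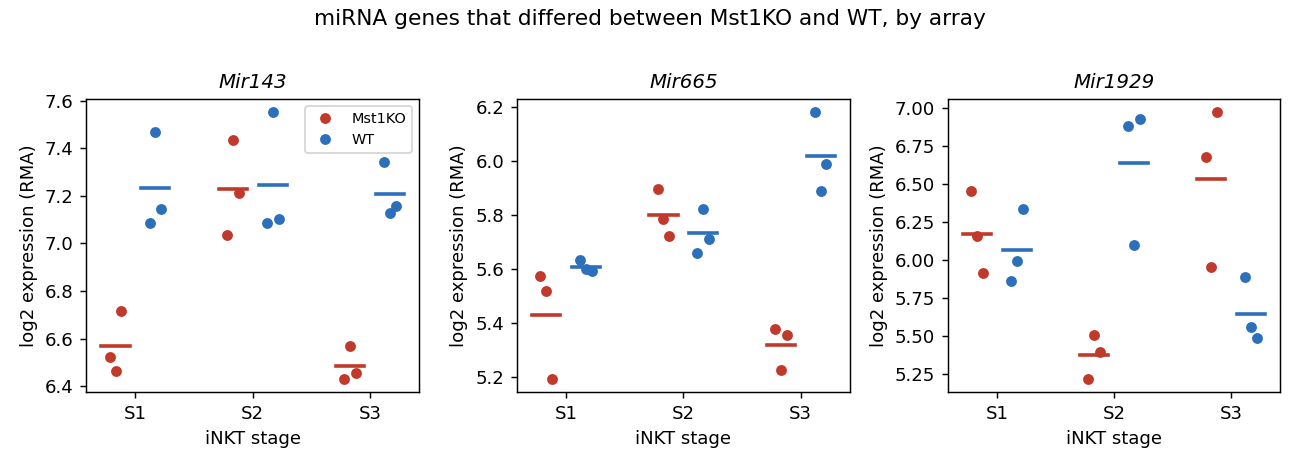
Log2 expression (y axis) of the 3 miRNA genes called between genotypes, by stage (x axis), 1 point per array, Mst1KO left of WT, with lines at the mean of 3 arrays. Mir143 and Mir665 lie lower in Mst1KO at S3, and Mir1929 lies lower in Mst1KO at S2 and higher at S3.

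Arrays of the genotypes did not overlap for 21 members at S1 (12.4%, against 18.1% of all genes), 22 at S2 (13%, against 16.8%) and 23 at S3 (13.6%, against 23%). Lower in Mst1KO were 15 of the 21 at S1 (8.88% of members, against 7.9% of all genes), 16 of the 22 at S2 (9.47% against 7.12%) and 18 of the 23 at S3 (10.7% against 9.79%). Lower at 2 stages were Mir143 and Mir665 (S1 and S3), Mir669m-1 and Mir681 (S1 and S2), Mir3093 and Mir2137 (S1 and S3) and Mir16-2 (S2 and S3), and Mir703 was lower at all 3, by -0.45, -0.36 and -0.24, with no call. Mir654 was higher in Mst1KO at S2 (0.60, adjusted p = 0.0644) and at S3 (0.25). At S1 the members higher in Mst1KO were Mir23b (1.22), Mir342 (1.17), Mir30c-1 (0.93), Mir23a (0.75), Mir1933 (0.51) and Mir713 (0.32), with adjusted p-values of 0.145 or more. At S2 the others higher in Mst1KO were Mir15a (0.83), Mir194-2 (0.59), Mir3081 (0.58), Mir27a (0.53) and Mirlet7a-1 (0.24), and at S3 Mir30e (1.16), Mirlet7i (0.42) and Mir692-1 (0.19). Mir194-2 passed the filter only through Mst1KO at S2, so its place among the 22 at S2 describes that choice.

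The other members apart at S1 and lower in Mst1KO were Mir467e, Mir296, Mir3088, Mir674, Mir1951, Mir763, Mir3473d and Mir212, with differences from -0.68 to -0.08. At S2 they were Mir3961 (-0.67, adjusted p = 0.0584), Mir511 (-0.52, adjusted p = 0.0533), Mir31, Mir187, Mir329, Mir1191, Mir466h, Mir92b and Mir467c. At S3 they were Mir697 (-1.11, adjusted p = 0.1), Mir346, Mir9-1, Mir574, Mir219a-2, Mir1938, Mir3091, Mir874, Mir551b, Mir1190, Mir5099 and Mir877, from -0.35 to -0.15 apart from Mir697. At S3 the measured myeloid markers averaged 6.22 to 6.59 per array in Mst1KO and 5.91 to 6.07 in WT, with 1 of 7, C1qb, called higher in Mst1KO (0.94), and of the NK and innate lymphoid markers Tyrobp was called higher (0.88). At S2 the myeloid markers averaged 5.70 to 5.84 in Mst1KO and 5.48 to 5.56 in WT, with none called. At S1 the 5 conventional T cell markers averaged 9.02 to 9.41 per array in Mst1KO and 8.57 to 8.96 in WT, with none called. The part of such cells in these differences was not tested. The 4 endothelial markers averaged 6.01 to 6.12 in Mst1KO and 5.97 to 6.01 in WT at S3, with none called.

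In the differences of stage changes between genotypes, no member was called for S1 to S2, where limma called 2 of all genes (0.0153%) and 24 members had an unadjusted p under 0.05 (14.2%, against 6.77% of all genes). For S2 to S3 the 2 called members, Mir1929 higher and Mir665 lower, made 1.18% against 0.368%. A share from 2 genes is imprecise, and the test of Mir665 did not hold in most fits that left out an array.

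Many miRNAs are cut from the introns of other genes, so the members were set beside their hosts. Of the 169, 118 lay inside the span of another gene in RefSeq, 100 of these in a protein coding one, with 74 on the same strand as the host, 7 on the opposite one and 37 with the strand not given. The host was measured for 82. Across these 82 pairs the differences of member and host correlated weakly in every comparison, with r from 0.03 to 0.29, and across the 56 pairs on the same strand from 0.02 to 0.40. Of the 5 members of these pairs called between S3 and S2 of WT, 2 had a called host. At that step 27 of the 82 hosts were called, and 23.6% of all genes. Mir1938 rose with Ifrd1, and Mir697 rose while Sf3a3 fell by 0.45 on the log2 scale. In Mst1KO 13 members and 17 hosts were called, at a step where 17.2% of all genes were. Both were called in the same direction in 3 pairs. Mir106b fell with Mcm7 (-0.60), Mir1931 rose with Cdk17 (0.41) and Mir1933 rose with Ugp2 (0.39). Whether members and hosts were called together more often than these counts alone would give was not tested. Among the 3 genes called between genotypes, no measured host was called.

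By position, 13 clusters of members within 10 kb held 34 members, the largest with 5. In WT at S3 against S2, both members were called in the same direction in the clusters of Mir181a-1 with Mir181b-1 and of Mir23a with Mir27a. Mir181c with Mir181d and the Mir17 cluster had no called member in any comparison.

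Of 28 listed genes that make and load miRNAs, 23 were measured. At S3 against S2 of Mst1KO 5 were called (21.7%, against 17.2% of all genes). Tut4, a uridylyl transferase that acts on let-7 precursors (0.31), Ddx5, a helicase of the Drosha complex (0.55), and the nuclease gene Zc3h12a (0.41) were higher, and Ran (-0.50) and Srrt (-0.27) lower. In WT 7 were called (30.4%, against 23.6%), with Tut4 (0.47), Ddx5 (0.67) and Tnrc6a, a partner of Argonaute (0.34), higher. Lower in WT were Srrt (-0.58), Ran (-0.58), the nuclease Drosha (-0.47) and the exporter Xpo5 (-0.40). At S2 against S1, Drosha was lower in Mst1KO (-0.59) and Zc3h12a higher in WT (0.55). Between genotypes 1 was called, Tut4, lower in Mst1KO at S3 by -0.44 ± 0.09 (adjusted p = 0.0091). Dicer1 and the measured Argonaute genes were called in no comparison.

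Of 54 listed targets of these miRNAs in lymphocytes, 49 were measured. At S3 against S2, 12 were called higher and 13 lower in Mst1KO (51.0%, against 17.2% of all genes). In WT 17 were higher and 15 lower (65.3%, against 23.6% of all genes). The list holds many genes of iNKT maturation, so these shares say nothing of miRNAs. The lowest limma p-values among the targets at this step in Mst1KO were those of Ifng (3.44), Irf4 (-1.63), Icos (-1.22), Bcl2 and Tbx21 (1.58). In WT they were those of Irf4 (-2.72), Myb (-2.74), Icos (-1.51), Ifng (2.65) and Zbtb16. Of the targets known for miR-181, the phosphatase genes Ptpn22 (0.88), Dusp5 (0.50) and Dusp6 (0.57), the activation marker Cd69 (1.50) and the survival gene Bcl2 (2.35) were higher at S3 than at S2 of Mst1KO. All 5 were also higher in WT, Ptpn22 by 0.86 ± 0.09, Dusp5 by 0.67 ± 0.09, Dusp6 by 0.83 ± 0.14, Cd69 by 1.40 ± 0.23 and Bcl2 by 2.15 ± 0.20. Ptpn11 differed by 0.01 ± 0.10 in WT and by -0.17 ± 0.10 in Mst1KO, without a call in either. Ptpn22 and Dusp5 were also higher at S2 against S1, by 0.61 and 0.42 in Mst1KO and by 0.96 and 0.35 in WT, and Dusp6 was in WT (0.53). Bcl2 was lower at S2 in Mst1KO (-0.94). No miR-181 gene was called at this step. The let-7 target Zbtb16 fell at S3 by -0.90 ± 0.12 in Mst1KO and -1.32 ± 0.12 in WT. The miR-27 targets Gata3 (-0.28 and -0.25) and Foxo1 (-0.53 and -0.43) fell in Mst1KO and in WT. No link between a miRNA gene and a target was tested.

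Between genotypes 1 of the 49 targets was called at S1 (2.04%, against 0.33% of all genes), 3 at S2 (6.12%, against 1.17%) and 4 at S3 (8.16%, against 3.4%). Il4, a cytokine under miR-24, was lower in Mst1KO at S1 (-0.64), S2 (-1.11) and S3 (-0.98). At S3 Irf4 (1.26) and Myb (1.46), targets of miR-125 and miR-150, were higher in Mst1KO and Bcl2l11, a target of the Mir17 cluster, was lower (-0.98). At S2 Prdm1 (0.71) and Tgfbr2 (0.34) were higher. The S2 to S3 change of Myb differed by 1.87 ± 0.22 (adjusted p = 0.000821) and that of Irf4 by 1.09 ± 0.18 (adjusted p = 0.0114). Neither Mir150 nor any Mir17 cluster gene could be set beside these as a called miRNA gene, since Mir150 did not pass the rule and the cluster was not called.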

How the data were processed

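Gene expression was measured on 18 Affymetrix MoGene-2_0 arrays. RNA was isolated with the RNeasy Micro kit and amplified with NuGEN chemistry, per the labels' protocols. The submitters' processing notes name RMA and Affymetrix Expression Console 1.1 for the log2 values that the authors deposited, 1 per probe set and array. By its method RMA subtracts background, gives the arrays a shared distribution and combines the probes of a set. The number of arrays limits the precision. Gene symbols were those of the platform annotation.

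Of 41345 probe sets, 23521 had 1 symbol and 13702 of these passed the filter on the array median. The brightest stood for its gene. A mean per group was fitted to all 18 arrays with limma 3.58.1 in R 4.3.3 (statmod 1.5.0 for the random block), and p-values were adjusted over all 13034 genes within each comparison by the Benjamini-Hochberg method. The 9 comparisons were Mst1KO over WT at each stage, S2 over S1 and S3 over S2 in each genotype, and the differences of these steps between genotypes. The procedure was also run on simulated data with independent noise on each array. Such data cannot show how it behaves where arrays share mice or values lie near background.

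The members, the lists and the tests were chosen with earlier results of these data known. Named were all called members, those whose arrays did not overlap between genotypes, listed T cell miRNAs and genes at the edge of the filter. Cluster neighbours, hosts and all called machinery genes were named too. The targets named were those called between genotypes, those with the lowest p-values at S3 over S2, and some known targets of miR-181, let-7 and miR-27. Sequences, hosts and clusters came from RefSeq tables of build GRCm38.p6. As alternatives the filter was dropped or set at the 75th percentile, arrays were quantile normalized again or centred on their medians, the fit was given a variance trend and made robust, probe sets of a gene were averaged, the replicate number was used as a block, only the groups compared were fitted, and each array was left out. Tables and figures used Python 3.11.15, pandas 2.3.3, numpy 2.4.6 and matplotlib 3.10.9.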

Additional observations from a re-analysis of the deposited data

Results flagged for a closer look

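The S2 to S3 change differed between genotypes, by the test of that difference, for 2 miRNA genes. For Mir1929 the change in Mst1KO minus that in WT was 2.1583 ± 0.35 on the log2 scale (limma adjusted p = 0.0114). Its S3 to S2 difference was 1.16 ± 0.25 in Mst1KO, with all 3 S3 arrays above all S2 arrays, and -0.99 ± 0.25 in WT, with all 3 below. For Mir665 the change in Mst1KO minus that in WT was -0.7683 ± 0.15 (limma adjusted p = 0.0319). Its S3 to S2 difference was -0.48 ± 0.11 in Mst1KO (adjusted p = 0.00426) and 0.29 ± 0.11 in WT (adjusted p = 0.061), the second of which was not called.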

How the results depend on the processing

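No alternative reversed a value. The call of Mir143 between genotypes at S3 held in each alternative run, and that of Mir665 in each but the 75th percentile filter, under which it was not tested. Counts of called miRNA genes moved as follows, against 0, 1 and 2 between genotypes at S1, S2 and S3, 8 and 22 for S2 over S1 and S3 over S2 in Mst1KO, 3 and 16 in WT, and 2 for the difference of the S2 to S3 change. With the filter at the 75th percentile, which left 53 members tested, they were 1 at S1, 4 and 13 for the steps of Mst1KO, 6 for S3 over S2 in WT, and 1 for the difference. A variance trend with a robust fit gave 1 at S1, 2 at S2, 5 for S2 over S1 in WT and 1 for the difference. Without a filter there was 1 for S2 over S1 in WT and 1 for the difference, and median centring gave 1 for the difference. Fits on the groups compared alone gave 0 at S2, 0 for S2 over S1 in WT and 0 for the difference. Fewer genes were tested under the stricter filter and fewer arrays were fitted with the groups compared alone, and the other causes were not tested.

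Leaving out 1 array gave 0 to 3 calls at S2, 2 to 3 at S3, 2 to 8 and 11 to 20 for the steps of Mst1KO, 1 to 3 and 13 to 16 for those of WT, and 1 to 3 for the difference of the S2 to S3 change. The lowest counts came without WT S2 replicate 1 or Mst1KO S2 replicate 1 or 3 (0 at S2), without WT S2 replicate 1 (1), without Mst1KO S2 replicate 1 (2) and without Mst1KO S3 replicate 2 (11). Of 54 calls over the 9 comparisons, 22 held with each array left out and 32 did not. Repeated quantile normalization split the S2 over S1 calls in WT into 1 higher and 1 lower.

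Same-numbered arrays varied together weakly or not at all (correlation of deviations -0.05 to 0.21). Between S2 and S1 of WT the same-numbered pairs lay at 0.09 to 0.21, against a mean of -0.07 for other pairs. Between the genotypes at S3 they lay at -0.05 to 0.03, against 0.01. With so few arrays per group, such values cannot show whether the numbers pair the samples, and the main fit did not use them as pairs. With the replicate block as a fixed term there was 1 call at S1, and with a random block 2 at S2. These fits changed no other count by more than 1.5 times. Of the 2 calls for the difference of the S2 to S3 change, that of Mir665 was lost with no filter, with median centring, with the variance trend and in 8 of 12 fits without 1 array, and both it and that of Mir1929 were lost with the groups compared alone.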

Other observations

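Probe sets that carry a miRNA symbol beside another gene were fitted apart. Of 136, 71 passed the filter, and none was called between genotypes at any stage, against 0.0777%, 0.272% and 1.2% of 23166 probe sets at S1, S2 and S3. Between S3 and S2 of Mst1KO 6 were called, 2 higher and 4 lower (10.5% of all probe sets were called), and in WT 9 were, 5 higher and 4 lower (15%). The probe set of H19 and Mir675, an imprinted noncoding RNA and the miRNA cut from it, averaged 4.24 at S2 and 7.71 at S1 of Mst1KO, and 4.70 at S2 and 7.01 at S1 of WT. It lay above the array median on the 6 arrays of S1 alone, so it passed only through the groups in which it was high, and its values at S2 are not shown to be above background. That of Ccnf and Mir5134, Ccnf being a cyclin gene, fell at S3 by -1.44 ± 0.15 in Mst1KO and by -1.95 ± 0.15 in WT, and that of Rcan3 and Mir700 by -0.53 ± 0.09 in Mst1KO and -0.93 ± 0.09 in WT. The probe set of Vmp1 and Mir21a averaged 7.74, 8.08 and 8.06 at S1, S2 and S3 of Mst1KO and 7.84, 8.06 and 8.04 in WT, with no call. In such probe sets the signal of the miRNA gene and of its neighbour cannot be told apart.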
